A study of Sus scrofa with 2 samples.

Results

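The genes described here are 51 leukocyte and lymphocyte genes, measured by RNA-seq in the endometrium of Yorkshire pigs in early pregnancy. They were chosen by symbol, as genes known to mark T cells, natural killer (NK) and cytotoxic cells, B cells, monocytes and macrophages, or leukocytes in general, together with chemokines and cytokines. A deposited row belonged to a gene if its RefSeq accession, without the version number, carried the gene's symbol in the annotation of Sscrofa11.1, and the rows of a gene were summed. Of the 51 genes, 46 had at least 1 row, among 11063 genes matched in all. CD8B, CD28, CD68 and CORO1A had no row under this matching, and ZAP70 had no symbol in the annotation, so these genes were not analysed here.

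The samples were whole endometrium from 2 Yorkshire sows at day 18 of pregnancy, which form the group YK18 as replicate 1 and replicate 2. Both sows were artificially inseminated, and the uterine horns were flushed with saline before sampling, so the tissue holds epithelium, stroma, vessels, blood and resident immune cells together. There was 1 library per sow and 1 condition, so every difference below is one between 2 animals without a replicate check, and no p-value is given. In such bulk tissue, fewer cells of a type and less RNA per cell cannot be told apart. Values are RPKM, reads per kilobase and per 1000000 reads. The libraries held 7466979 and 7023108 reads behind these values, worked out from the steps between low values, and reads per gene are the smallest whole numbers that give the deposited RPKM.

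At this stage the pig conceptus is attaching to the uterine surface, and the endometrium takes in immune cells, among them T cells and NK cells, that take part in vessel growth and in tolerance of the conceptus. T cells recognise antigen through a receptor that signals through the CD3 chains, NK cells and cytotoxic T cells kill with perforin and granzymes, and macrophages depend on the receptor CSF1R. PTPRC, also called CD45, is a phosphatase on the surface of nearly all white blood cells.

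Leukocyte transcripts were clearly present in both sows. PTPRC had the highest RPKM of the 51 genes in each library, at 526.1 RPKM in replicate 1 against 846 RPKM in replicate 2, from 825 and 1247 reads. Its mean of 686 ± 225.8 RPKM (SD, n = 2) lay at percentile 89.5 of the 6985 genes above 0 in both libraries. The next in order of the mean were CD2 at 320.2 ± 63.9 RPKM, FCGR3A at 259.2 ± 92.2 RPKM, LYZ at 248 ± 193 RPKM and ITGAM at 194 ± 63.0 RPKM (SD, n = 2 each). PTPRC stood clear of CD2 in both libraries, while CD2, FCGR3A, LYZ and ITGAM lay within the spread of their neighbours, and their order differed between the sows. Below them followed CSF1R with a mean of 107.6 RPKM, CD3E with 97.6 RPKM and IL2RG with 90.2 RPKM.

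In all, 27 of the 51 genes were above 0 in both libraries, with a median of 31.3 RPKM in replicate 1 against 28.6 RPKM in replicate 2. Over all genes above 0 in both libraries the medians were 33.3 and 36.7 RPKM, so the leukocyte genes that were detected lay in the middle of the range. A further 4 genes were above 0 in 1 library and 15 were listed at 0 in both. Over the 27 genes, the levels in the 2 sows had a Spearman correlation of 0.934, which is across genes that share libraries and is given as a description. Comparing levels between genes rests on the lengths by which the authors divided, which the sources used here do not give. The smallest lengths that gave whole reads were 210 nt for PTPRC, 59 nt for ITGAM, 46 nt for IL2RG and 786 nt for CD14. True lengths may be multiples of these. IL2RG averaged 90.2 RPKM from 29 and 31 reads, and CD14 16.2 RPKM from 87 and 97 reads. The order of genes by RPKM is therefore not their order by reads and is not read as abundance.

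**Figure D1:**
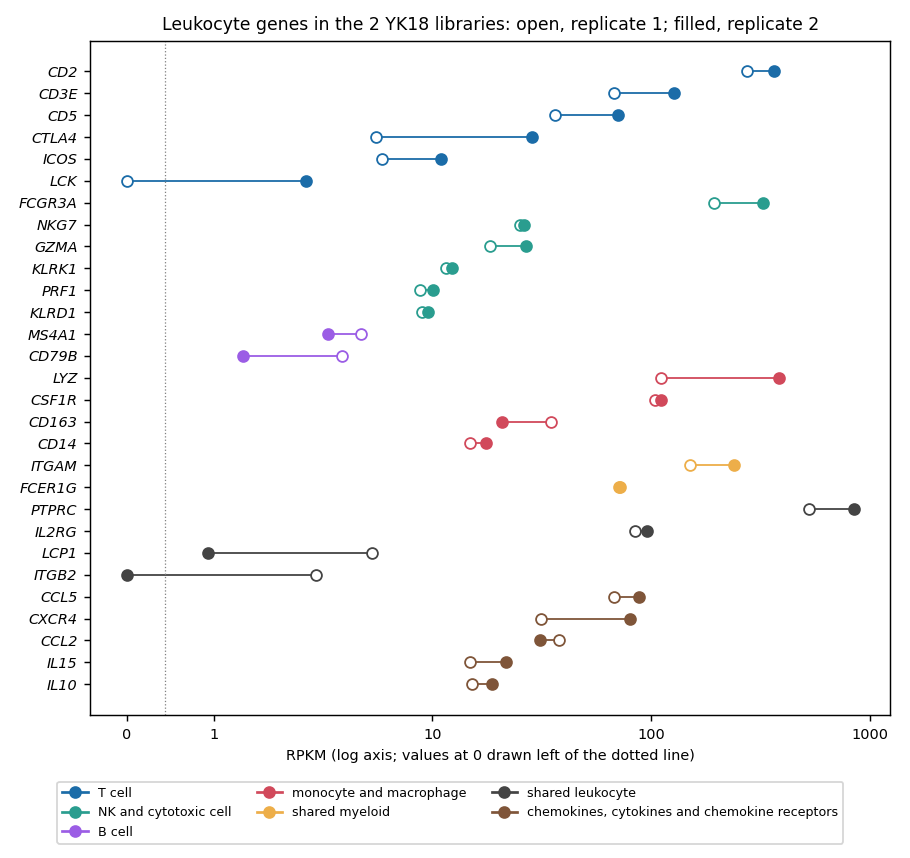
RPKM (log axis) of the 29 leukocyte genes averaging 1 RPKM or more, by class, with an open point for YK18 replicate 1, a filled point for replicate 2 and values at 0 drawn left of the dotted line. All 6 T cell genes and all 6 NK and cytotoxic genes lie higher in replicate 2, against 58.0% of all genes, with LCK resting on 1 read. Of the NK and cytotoxic genes, NKG7, KLRK1 and KLRD1 lie at nearly the same level in both libraries, and FCGR3A lies clearly higher in replicate 2.

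All 6 T cell genes averaging 1 RPKM or more were higher in replicate 2, as were 58.0% of all such genes. CD3E, a signalling chain of the T cell receptor complex, was at 67.5 RPKM in replicate 1 against 127.8 RPKM in replicate 2. CD5, a brake on T cell receptor signalling, was at 36.3 and 70.4 RPKM, and CD2, an adhesion receptor of T and NK cells, at 275 and 365 RPKM. Divided by the library totals, reads of CD3E were 1.90 times as many in replicate 2 (95% exact binomial interval 1.40 to 2.58), those of CD5 1.94 times (1.36 to 2.78) and those of CD2 1.33 times (1.17 to 1.51). These intervals compare the libraries and cover counting error only, since reads made by PCR are not independent molecules.

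CTLA4 and ICOS are receptors of the CD28 family, which turn T cell activation down or up. CTLA4, an inhibitory receptor of activated and regulatory T cells, was at 5.55 RPKM from 7 reads in replicate 1 and at 28.6 RPKM from 34 reads in replicate 2. ICOS, a costimulatory receptor, was at 5.90 RPKM from 19 reads and 10.9 RPKM from 33 reads. CTLA4 had the largest difference of the 51 genes toward replicate 2, with a reads ratio of 5.16 (2.25 to 13.8), whereas the interval of ICOS, 1.02 to 3.44, came close to 1. In the annotation of Sscrofa11.1 the genes CTLA4 and ICOS are neighbours. LCK, the kinase that starts T cell receptor signalling, was listed at 0 in replicate 1 and rested on 1 read in replicate 2, and CD247 likewise on 1 read in replicate 2.

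The other T cell genes gave no value, and among them are the lineage markers. CD4, CD8A, CD3D, CD3G, FOXP3 and IL7R were listed at 0 in both libraries. CD3D lies beside CD3E in the annotation and CD3G beside CD3D, and of the 3 genes CD3E had reads. The shares of helper, cytotoxic and regulatory T cells can therefore not be read from these values.

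Of 20 further T cell genes, 11 had a row and 4 averaged 1 RPKM or more. VAV1, a signalling protein of blood cells, was at 436 and 833 RPKM, and SIT1, an adaptor at the T cell receptor, at 17.4 and 37.0 RPKM. Both were higher in replicate 2, with reads ratios of 1.91 (1.56 to 2.34) and 2.13 (1.16 to 4.06). CD69, a surface protein that appears early in lymphocyte activation and on resident T cells, was instead lower in replicate 2, at 130.9 and 66.4 RPKM with a ratio of 0.507 (0.368 to 0.691). CD40LG, the helper T cell ligand for B cells, had 17 reads in each library. The T cell genes thus did not all share a direction.

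All 6 NK and cytotoxic genes averaging 1 RPKM or more were also higher in replicate 2, against 58.0% of all such genes. Several of them had nearly equal reads in both sows. NKG7, a protein of cytotoxic granules, was at 25.3 and 26.4 RPKM, and PRF1, perforin, at 8.74 and 10.04 RPKM. KLRK1 and KLRD1, lectin-like receptors of NK cells encoded side by side, had 11 reads and 9 reads respectively in each of the libraries. These 4 genes had reads ratios from 1.04 to 1.15. With so few reads the intervals were wide, 0.707 to 1.54 for NKG7 and 0.374 to 3.02 for KLRD1. A difference of the size seen for CD3E was therefore not detectable for KLRD1. The interval of NKG7 ended below the ratio of CD3E but overlapped the interval of CD3E, 1.40 to 2.58.

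GZMA, a granule protease, was at 18.4 and 26.7 RPKM from 11 and 15 reads. The annotation gives this symbol to a pair of genes, of which 1 held all the reads. GZMB rested on 1 read in replicate 1, and GZMK and NCR1, an activating NK receptor, were listed at 0 in both libraries. FCGR3A, the Fc receptor CD16, stood apart from the class in level and difference, at 194 RPKM from 297 reads and 324.4 RPKM from 467 reads, with a ratio of 1.67 (1.44 to 1.94). In pigs CD16 is found on NK cells and also on monocytes, macrophages and granulocytes. Without FCGR3A, the summed level of the NK and cytotoxic genes was 73.8 RPKM in replicate 1 against 85.0 RPKM in replicate 2.

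Of 18 further NK and cytotoxic genes, 8 averaged 1 RPKM or more. The killer lectin KLRB1 with 29 and 28 reads, and the death ligand FASLG with 23 reads in each library, had close to equal reads in both sows. CTSW, a cathepsin of cytotoxic lymphocytes, was at 174.4 and 314.7 RPKM, with a ratio of 1.80 (1.47 to 2.21), and CD244, a receptor of NK cells and some T cells, at 43.3 and 89.2 RPKM, with a ratio of 2.06 (1.57 to 2.72). GZMM was at 8.24 and 18.6 RPKM from 8 and 17 reads, and its interval of 0.924 to 6.05 held 1. Cytotoxic genes with close to equal reads therefore stood beside others with a clear difference.

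The B cell genes had the lowest summed RPKM and the fewest reads of the classes. MS4A1, the B cell surface protein CD20, was at 4.71 and 3.34 RPKM from 12 and 8 reads, and CD79B, a chain of the B cell receptor complex, at 3.86 and 1.37 RPKM from 3 reads and 1 read. Both were lower in replicate 2, and the intervals of both held 1. CD79A, the partner chain of CD79B, was listed at 0 in both libraries, as was the B cell factor PAX5.

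Among the further B and plasma cell genes, JCHAIN and MZB1 differed most. JCHAIN, which joins the subunits of secreted IgA and IgM, was at 169.5 RPKM from 419 reads in replicate 1 and at 773 RPKM from 1797 reads in replicate 2. MZB1, a chaperone for antibody assembly in the endoplasmic reticulum, was at 6.23 RPKM from 10 reads and 29.1 RPKM from 44 reads. The reads ratios were 4.56 (4.10 to 5.08) and 4.68 (2.32 to 10.4). POU2AF1, a coactivator of antibody genes, was at 3.74 and 8.61 RPKM from 6 and 13 reads, with an interval of 0.817 to 7.39. Other genes of this list of 14 did not share the difference. BLNK, an adaptor of the B cell receptor, was at 228.9 and 226.5 RPKM, and CD38, found on plasma cells and on many other cells, at 160.5 and 142.0 RPKM. TNFRSF17, the survival receptor of plasma cells, rested on 1 read in replicate 1. JCHAIN and MZB1 were set apart from the rest of their list after the values had been seen.

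The macrophage genes were divided. CSF1R, the receptor for macrophage colony-stimulating factor, had 141 reads in each library, at 104.3 and 110.9 RPKM. CD14, which binds bacterial lipopolysaccharide, was at 14.8 and 17.6 RPKM from 87 and 97 reads. Both ratios had intervals that held 1, at 0.836 to 1.35 for CSF1R and 0.878 to 1.6 for CD14. CD163, the scavenger receptor for haemoglobin, was lower in replicate 2, at 34.7 RPKM from 48 reads and 20.8 RPKM from 27 reads, with a ratio of 0.598 (0.359 to 0.978). No other of the 29 leukocyte genes averaging 1 RPKM or more had an interval below 1.

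LYZ, lysozyme, had the largest difference of the class, with 111.5 RPKM from 263 reads in replicate 1 and 384.4 RPKM from 853 reads in replicate 2. Its ratio was 3.45 (3.0 to 3.97). Lysozyme is made by macrophages and granulocytes and also by secretory epithelia, so it does not mark leukocytes alone. Without LYZ the summed level of the class was 153.9 RPKM in replicate 1 against 149.3 RPKM in replicate 2. SPI1, the myeloid transcription factor PU.1, and AIF1 were listed at 0 in both libraries.

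Of the shared myeloid genes, ITGAM, the integrin chain CD11b, was at 149.8 and 238.9 RPKM from 66 and 99 reads, with a ratio of 1.59 (1.16 to 2.21). FCER1G, the signalling chain of several Fc receptors, was at 71.6 and 72.4 RPKM from 62 and 59 reads. TYROBP, a similar adaptor, was listed at 0 in both libraries. The genes of this class that had reads thus differed from each other, 1 being higher in replicate 2 and 1 about equal.

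Among 16 further monocyte and macrophage genes, 10 averaged 1 RPKM or more and 6 of these had an interval above 1, against 18.6% of all genes. Intervals narrow as reads rise, so these shares are not a like comparison. Reads of the genes in this list ran from 2 and 1 for MARCO to 1379 and 1904 for C1QC. The median over all genes was 197 over both libraries. The complement genes C1QA and C1QC, which tissue macrophages express strongly, were at 384.2 and 529 RPKM and at 478.4 and 702.3 RPKM, with ratios of 1.38 (1.26 to 1.51) and 1.47 (1.37 to 1.57). LAPTM5, a lysosomal protein of blood cells, lymphocytes included, had the highest mean of the list, at 468 and 1034 RPKM, and a ratio of 2.21 (2.05 to 2.39). MRC1, the mannose receptor of tissue macrophages, was at 387.1 and 402.0 RPKM with an interval of 0.912 to 1.18. TLR4, the lipopolysaccharide receptor, was lower in replicate 2, at 78.7 and 47.9 RPKM, as CD163 was. So the macrophage genes held both directions.

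The neutrophil and eosinophil genes that had a row had few reads, and several were not measured. The 51 genes hold no marker of granulocytes alone, so 18 genes of granulocytes and mast cells were read beside them. Of these, 10 had a row. CSF3R and CXCR2 had no row, CXCR1, CTSG and CAMP had no symbol in the annotation, and S100A9 was listed at 0 in both libraries. S100A12, a calcium-binding protein of neutrophils, was at 14.4 and 29.4 RPKM from 13 and 25 reads, and S100A8 at 2.08 and 5.52 RPKM from 2 and 5 reads. ELANE, neutrophil elastase, had 1 and 6 reads, MPO, myeloperoxidase, 1 read and 0 reads, and EPX, the eosinophil peroxidase, 2 and 4 reads. S100A12 had an interval of 1.01 to 4.35, and those of S100A8, ELANE and EPX held 1. KIT and HDC were high, at 589.4 and 1060 RPKM and at 766 and 597.4 RPKM, but both are made by cells other than mast cells, and MS4A2, the mast cell Fc receptor chain, was listed at 0 in both libraries.

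Several dendritic cell genes were higher in replicate 2. IRF8, a transcription factor of dendritic cells and B cells, was at 68.9 RPKM from 88 reads and 242.3 RPKM from 291 reads, with a ratio of 3.52 (2.76 to 4.52). FLT3, the growth factor receptor of dendritic cell precursors, was at 36.3 and 102.7 RPKM, with a ratio of 2.83 (1.93 to 4.22), and XCR1, a chemokine receptor of cross-presenting dendritic cells, at 0.938 and 4.61 RPKM from 18 and 81 reads. These were 3 of the 4 genes of the list of 10 that averaged 1 RPKM or more, and their intervals lay above 1, against 18.6% of all genes. The other, CD207, rested on 3 and 4 reads with an interval of 0.240 to 9.68.

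**Figure D2:**
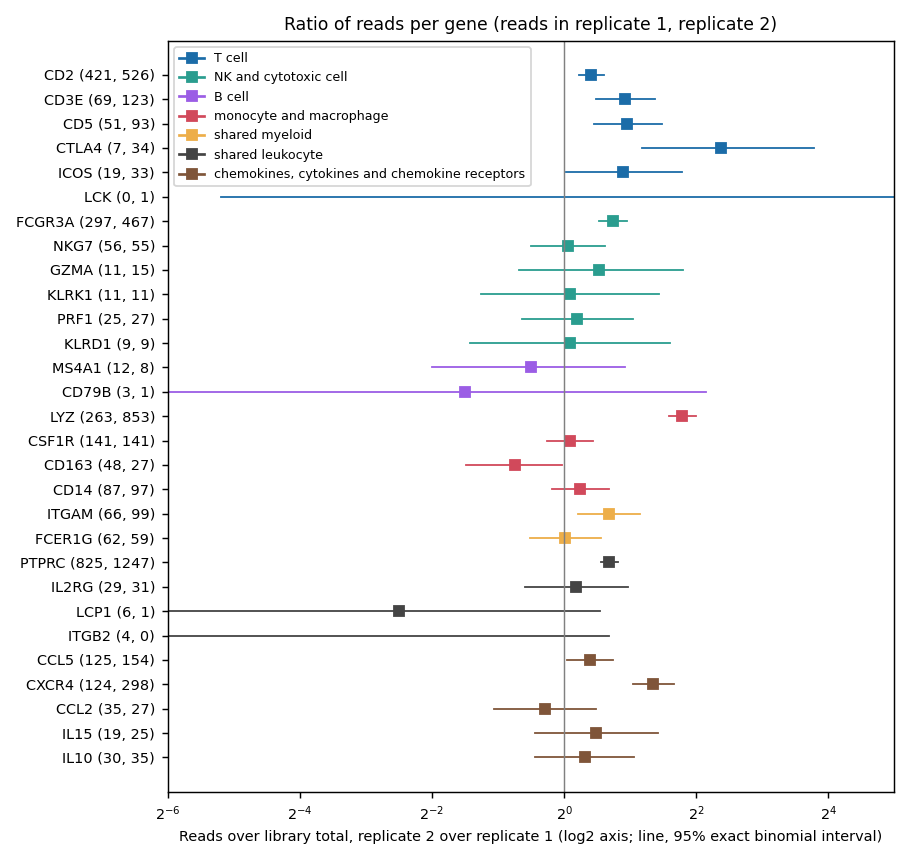
Ratio of reads over the library total, replicate 2 to replicate 1 (log2 axis), for the 29 leukocyte genes averaging 1 RPKM or more, with the reads in each library beside the name and lines for 95% exact binomial intervals, clipped at the edges of the plot. The intervals of 11 genes lie above 1, that of CD163 lies below 1, and those of NKG7, PRF1, KLRK1 and KLRD1 hold 1.

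The chemokine genes differed most in a receptor. CXCR4, the receptor for CXCL12 on lymphocytes and many other cells, was at 31.3 RPKM from 124 reads in replicate 1 and 79.9 RPKM from 298 reads in replicate 2, with a ratio of 2.56 (2.07 to 3.18). Its ligand CXCL12 was at 47.1 and 47.4 RPKM. CCL5, which draws T cells and monocytes, was at 67.5 and 88.4 RPKM, with a ratio of 1.31 (1.03 to 1.67). CCL2, which draws monocytes, was at 37.8 and 31.0 RPKM, and its interval of 0.477 to 1.39 held 1. Between the sows, the receptor CXCR4 differed and its ligand had nearly equal levels.

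Of the cytokines among the 51 genes, IL10 and IL15 had reads. IL10, an anti-inflammatory cytokine, was at 15.1 and 18.7 RPKM from 30 and 35 reads. IL15, which sustains NK cells, was at 14.8 and 21.6 RPKM from 19 and 25 reads over 4 rows. The intervals of both held 1. IL18, CSF2 and CCR7, a homing receptor of naive T cells and mature dendritic cells, were listed at 0 in both libraries. IL2RG, the receptor chain shared by the receptors for IL2, IL7 and IL15, was at 84.4 and 96.0 RPKM from 29 and 31 reads, with an interval of 0.663 to 1.95.

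Of 24 further chemokine, cytokine and receptor genes, 18 averaged 1 RPKM or more, 15 of which were higher in replicate 2, against 58.0% of all genes. CXCL10 and CXCL9, interferon-induced ligands of CXCR3 that draw activated T cells and NK cells, were at 935 and 1276 RPKM and at 55.7 and 132.3 RPKM. CXCR3 itself was at 1.33 RPKM from 8 reads and 7.58 RPKM from 43 reads, with a ratio of 5.71 (2.66 to 14.1). The ligands of CCR7 differed in opposite directions, with CCL19 at 207.9 and 88.1 RPKM and CCL21 at 9.74 and 36.2 RPKM, the latter from 4 and 14 reads.

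IFNG, interferon gamma, ran against the T cell genes. It was at 682 RPKM from 911 reads in replicate 1 and at 89.1 RPKM from 112 reads in replicate 2, a ratio of 0.131 (0.106 to 0.159). T cells and NK cells make it, and in pigs the trophectoderm of the conceptus secretes it at this stage. Of the other trophectoderm genes listed, CYP17A1 was at 31.2 and 9.59 RPKM from 45 and 13 reads, with an interval of 0.152 to 0.579. HSD17B1 was at 29.9 and 19.5 RPKM from 36 and 22 reads, and TFAP2C had 57 and 43 reads. The intervals of both held 1, at 0.364 to 1.13 for HSD17B1 and 0.527 to 1.21 for TFAP2C. CDX2, averaging below 1 RPKM, had 7 reads and 1 read. GATA2 was at 122.0 and 124.9 RPKM, and CYP19A1 had 0 and 3 reads. The part of conceptus RNA in the IFNG level was not tested.

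**Figure D3:**
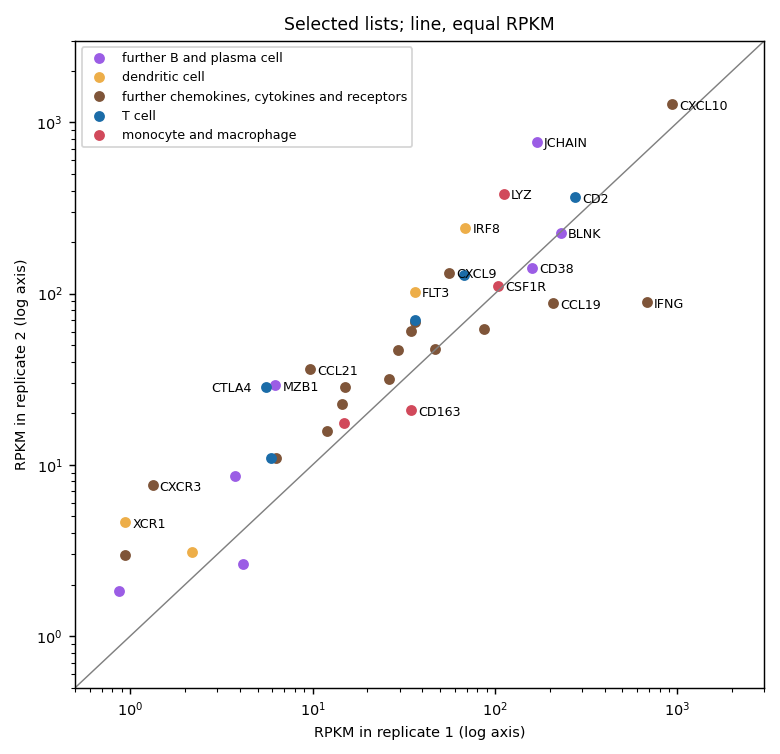
RPKM in YK18 replicate 2 against replicate 1 (both log axes) for genes of the T cell, macrophage, further B and plasma cell, dendritic cell and further chemokine, cytokine and receptor lists that were above 0 in both libraries averaging 1 RPKM or more. JCHAIN, MZB1, CTLA4, CXCR3, LYZ and IRF8 lie above the line of equal RPKM, and IFNG, CCL19 and CD163 below it.

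Of the classes of the 51 genes, the T cell genes had the highest median difference between the sows. On the log2(RPKM + 1) scale, the median difference of replicate 2 from replicate 1 was 0.92 over 6 T cell genes, with a range from 0.41 to 2.18. It was 0.13 over 6 NK and cytotoxic genes, with a range from 0.06 for NKG7 to 0.74, and 0.16 over 4 monocyte and macrophage genes, with a range from -0.71 to 1.78. The median over all 6474 genes averaging 1 RPKM or more was 0.07. Without LCK, which is listed at 0 in replicate 1, the T cell median was 0.91, and with all 13 listed T cell genes, 6 of them at 0 in both libraries, it was 0.41.

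The smaller classes rested on few genes. The median was 0.38 over 5 chemokine, cytokine and receptor genes, 0.34 over 2 shared myeloid genes and -0.72 over 2 B cell genes. For the 4 shared leukocyte genes it was -0.76, but this value came from ITGB2, the common chain of leukocyte integrins, with 4 reads and 0 reads, and LCP1, an actin-bundling protein, with 6 reads and 1 read. Among genes averaging 5 RPKM or more, which are PTPRC and IL2RG, it was 0.43. PTPRC alone had a reads ratio of 1.61 (1.47 to 1.76). The lists of further genes had medians of 0.51 for T cells, 0.31 for NK and cytotoxic cells, 0.61 for B and plasma cells, 0.51 for monocytes and macrophages, 0.85 for granulocytes and mast cells and 1.5 for dendritic cells. The granulocyte and mast cell median is the value of KIT, which other cells also make, and 4 of the 7 intervals in that list held 1.

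Summed over a class, the T cell genes were at 390.3 RPKM in replicate 1 against 606.5 RPKM in replicate 2. Leaving out CD2, the highest in RPKM, they were at 115.2 and 241.1 RPKM. The same step took away most of the difference in the NK and cytotoxic class, through FCGR3A, and in the macrophage class, through LYZ, as given above. The further lists did not all behave alike under this step. Without JCHAIN most of the difference in the further B and plasma cell list went, from 574.3 and 1184 RPKM to 404.7 and 410.7 RPKM. The granulocyte and mast cell genes summed to 1380 and 1705 RPKM, and without KIT to 790.9 and 644.8 RPKM, the opposite direction. Without VAV1 the further T cell genes summed to 162.8 RPKM in replicate 1 against 120.3 RPKM in replicate 2, also the opposite direction. For the further T cell genes that direction came from CD69, at 130.9 and 66.4 RPKM. Without CTSW the further NK and cytotoxic genes summed to 131.2 and 194.6 RPKM, and without LAPTM5 the further monocyte and macrophage genes to 1537 and 1999 RPKM. Sums of RPKM are carried by the genes with the highest RPKM and rest on the lengths used, so they do not measure numbers of cells.

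**Figure D4:**
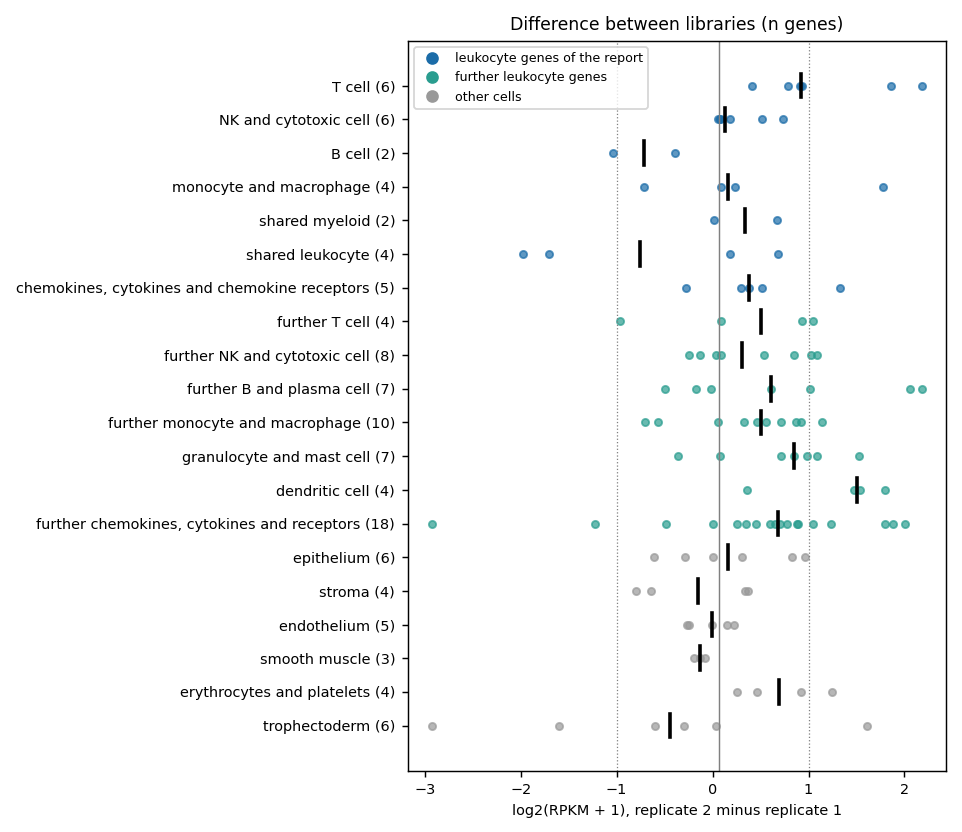
Difference of replicate 2 from replicate 1 on the log2(RPKM + 1) scale for genes averaging 1 RPKM or more, 1 point per gene and 1 row per list with its number of genes, with short black bars at list medians, a grey line at the median of all genes (0.07) and dotted lines at a 2-fold difference. All points of the T cell, dendritic cell, and erythrocyte and platelet lists lie to the right of the grey line, and those of the epithelium and endothelium lists lie on both sides.

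Against all genes, the leukocyte genes leaned toward replicate 2. Of the 29 averaging 1 RPKM or more, 23 were higher in replicate 2, which is 79.3%, against 58.0% of all such genes. The interval of the reads ratio lay above 1 for 11 of 29, or 37.9%, against 18.6% of all genes, although the leukocyte genes had fewer reads, with a median of 65 over both libraries against 197. These were CD2, CD3E, CD5, CTLA4, ICOS, FCGR3A, LYZ, ITGAM, PTPRC, CXCR4 and CCL5. The interval lay below 1 for 1 of 29, against 12.4% of all genes.

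Large differences were few. At least 2-fold higher in replicate 2 on the log2(RPKM + 1) scale were CTLA4, LYZ, LCK and CXCR4, which are 4 of 29 or 13.8%, against 7.48% of all genes. At least 2-fold higher in replicate 1 were ITGB2, LCP1 and CD79B, which are 3 of 29 or 10.3%, against 3.17% of all genes. LCK had 1 read in all, and the 3 genes higher in replicate 1 had at most 7 reads over both libraries, and the intervals of these 4 genes held 1.

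Leukocyte genes with 1 row were listed at 0 about as often as all such genes. Of the 46 leukocyte genes with a row, 15 were at 0 in both libraries, and 26.6% of all genes were. Values at 0 were more frequent where a gene had several rows. Of the 12 leukocyte genes with 2 or more rows, such as CD4, CD8A, CD3G, SPI1 and TYROBP, 7 were at 0, or 58.3%. Of the 34 with 1 row, 8 were at 0, or 23.5%. Over all genes these shares were 42.7% of those with 2 or more rows and 21.1% of those with 1 row. A row at 0 is reported as listed and not as an absent transcript, and KRT8, a keratin of simple epithelia, was also listed at 0 in this epithelial tissue.

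Genes of other cells were read to see what else differed between the samples. The epithelial marker EPCAM was at 5106 and 5128 RPKM, and the 10 epithelial genes summed to 11972 and 10850 RPKM, so the tissue held the epithelium that its label implies. The summed level of the 9 endothelial genes was 6539 RPKM in replicate 1 against 6210 RPKM in replicate 2, and that of the 9 stromal genes 69452 and 44378 RPKM, nearly all from COL3A1, while COL1A2 had 1 read and 0 reads. The 8 smooth muscle genes summed to 125.0 and 113.2 RPKM. The summed level of the 10 erythrocyte and platelet genes was 3612 and 8509 RPKM, nearly all from HBB, the beta chain of haemoglobin, at 3549 and 8431 RPKM. HBB was thus higher in replicate 2 by a ratio of 2.38 (2.29 to 2.46), in the same direction as the T cell genes. Of this list, 4 genes averaged 1 RPKM or more and all 4 were higher in replicate 2, against 58.0% of all genes. The intervals of 3 of them, all but HBB, held 1, while ALAS2 and PPBP were among those listed at 0 in both libraries. Whether blood held in the tissue had a part in the leukocyte values was not tested.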

How the data were processed

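Endometrium of 2 Yorkshire sows at day 18 of pregnancy was analysed, with 1 RNA-seq library per sow, and groups were taken from the labels. Per the methods of the study, the authors used HTSeq to count the reads of each transcript, and the deposited values are RPKM. Aligner, build and transcript lengths are not given in the sources used here. Because RPKM are not counts, no count model was fitted. Rows were matched to RefSeq symbols of Sscrofa11.1 for 16072 of 38222 mRNA rows. Coordinates of that annotation were used only to find which genes are neighbours.

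Library totals and reads were recovered from the steps of low values, at the smallest length up to 20000 nt that gave reads within 0.0001 of whole numbers in both libraries, so true reads may be multiples and the intervals too wide. On 24300 simulated rows both totals were recovered and the length was exact for 84.1% and exact or a divisor for 100%. All 200 rows changed 4-fold had an interval above 1, and 2.32% of unchanged rows an interval without 1. Simulated lengths were drawn at random, and some smallest lengths found here, such as 46 nt for IL2RG, lay below them. Unchanged rows differed by counting error alone, so these rates describe the simulated rows and not the real ones. Differences of replicate 2 from replicate 1 were taken on the log2(RPKM + 1) scale for genes averaging 1 RPKM or more, and a call is a difference of at least 2-fold. Ratios of reads over library totals have 95% exact binomial (Clopper-Pearson) intervals.

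The genes and lists were chosen with earlier results of these data known. The rule names every one of the 51 genes, and of the other lists up to 5 genes each, by highest mean or a 2-fold difference, and further ones were named after their values were seen. Alternatives were pseudocount, filters, rescaling, highest row, version-matched accessions, recovered reads and leaving out a replicate, and genes above 0 in both libraries was added after seeing the data. Python 3.11.15, pandas 2.3.3, numpy 2.4.6, scipy 1.17.1 and matplotlib 3.10.9 were used. Some genes of the further lists are not reported here by name.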

Additional observations from a re-analysis of the deposited data

How the results depend on the processing

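No paired analysis was possible because both libraries belong to 1 group. Of 88 values under alternatives, 73 stayed within the limit set for a change, which for class medians was 0.19 on the log2 scale, and 2 of 62 class medians changed sign, both of shared leukocyte genes. That median was -0.76 and became -1.10 with a pseudocount of 0.1, 0.43 among genes averaging 5 RPKM or more, -0.24 in recovered reads over the library total and 0.18 with genes above 0 in both libraries. The B cell median, -0.72, became -0.96 with a pseudocount of 0.1, -0.40 with all listed members and -0.29 in recovered reads. With all listed members, which adds genes at 0, the T cell median of 0.92 became 0.41, that of shared myeloid genes 0.017 and that of chemokines, cytokines and receptors 0.15. With versions matched, which leaves fewer genes, the NK and cytotoxic median became 0.51 and the shared myeloid median 0.017. The 3 genes at least 2-fold higher in replicate 1 became 0 among genes averaging 5 RPKM or more and 0 in recovered reads over the library total. The median level of the genes above 0 in both libraries ran from 28.6 to 31.3 RPKM across the values that each leave out one replicate. With 2 sows, the spread between animals is known only roughly, and for a gene such as KLRD1, with 9 reads in each library, a 2-fold difference lies within the counting interval.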
